A study of Mus musculus with 4 samples.

Results

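The genes described here act in the G2 and M phases of the cell cycle, when a cell that has copied its DNA prepares for division and divides. They were taken from a fixed list of 60 gene symbols, chosen by function, though with earlier results of these data known. Of the 60, 59 had at least 1 probe set listed with that symbol alone on the array, against 18193 genes in all, and Ccnb1, which encodes cyclin B1, was not analysed here. The 59 genes had 138 probe sets, and the 1 used for each gene had the highest average over the 4 libraries. Testing was limited to genes whose average was at least 5.69 on the log2 scale, the median of all probe sets. This kept 58 mitotic genes of 11196 genes tested. The kinesin Kif15 stayed below it, at 4.61 in both wild-type libraries, 4.72 in the library labelled KO1 and 5.0 in the library labelled KO2.

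The arrays measured RNA from lymphoid-primed multipotent progenitors (LMPPs), early blood progenitors of the bone marrow that favour lymphoid and myeloid fates. The cells came from C57Bl/6 mice aged 6 to 8 weeks, either wild type or Lyl1-null, with no treatment and no culture. They were sorted as negative for lineage markers, carrying Sca-1 and c-Kit, with Flt3 at a high level. Each genotype had 2 libraries, called WT1, WT2, KO1 and KO2 here after the numbers in their labels. Lyl1 encodes a transcription factor of the basic helix-loop-helix family that is active in blood progenitors, and the design asks what its loss does to gene expression in LMPPs. The labels do not say whether 2 libraries of a genotype came from separate mice or from pools, so a p-value here reflects the spread among these samples alone, and that spread may be technical. All levels are log2 expression values, all differences are log2 differences, and each genotype had n = 2.

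Entry into mitosis is driven by the kinase CDK1 bound to B-type cyclins, which CDC25 phosphatases switch on. Polo and Aurora kinases then build the spindle, the checkpoint holds anaphase until every kinetochore is attached, and the anaphase-promoting complex (APC/C) ends mitosis by tagging cyclins and securin for destruction. Most of these genes are transcribed in a burst in G2, under FOXM1, B-MYB and the MuvB core acting at cell cycle homology region (CHR) elements, with NF-Y bound at nearby CCAAT boxes. Their RNA is therefore widely used as a sign of dividing cells. In RNA from a bulk sort, fewer cells in G2 and M cannot be told apart from less of the RNA per cell.

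The libraries were first read against their labels. Lyl1 stood at 12.34 in WT1, 12.29 in WT2 and 5.14 in KO1. KO2 read 10.32, which goes against its label, so it is called the library labelled KO2, and KO1 is also read without it, by its level or its own difference from WT. That library also read 14.26 for Xist, against 5.81 to 6.30 in the other 3. Lyl1, Xist and Y-linked genes were read to check the labels, and 4 of these genes were above the filter. Of these 4, 1 was higher and 3 were lower than WT in each library labelled KO. Their differences from WT ran from −1.99 to 8.21 in KO2 and from −7.175 to 0.10 in KO1. In KO2 an effect of genotype therefore cannot be told apart from these other differences. The library labelled KO2 differed from the WT mean by at least 2-fold in 629 of 11196 genes, and KO1 did so in 82. Of the sort markers, Kit read 10.07, 10.27, 9.56 and 8.97 in WT1, WT2, KO1 and KO2, Flt3 read 11.92, 12.12, 11.80 and 11.26, and Cd34 read 12.76, 12.87, 12.59 and 11.93. All 3 were thus present in each library and fell in KO2 (limma, adjusted p = 0.0133, 0.0381 and 0.0243). Ly6a, which encodes Sca-1, was not analysed here.

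To show what the mitotic genes share in sequence, promoter windows were taken from RefSeq on GRCm38.p6, from 250 bases before each transcription start to 50 bases from it. Windows were found for 52 of the 60 genes, 56 windows in all because 4 genes had 2. A CHR element was searched as TTTGAA or TTCGAA and an NF-Y box as CCAAT, both on either strand, with overlapping matches counted. The stretches below are the 150 bases before the start of 7 genes, from 4 of the roles described below, whose stretch holds both. They lie at chr4:118437344-118437493 (Cdc20, minus strand), chr10:69352913-69353062 (Cdk1, minus), chr19:37376232-37376381 (Kif11, plus), chr7:135716380-135716529 (Mki67, minus), chr4:52439071-52439220 (Smc2, plus), chr11:99024190-99024339 (Top2a, minus) and chr2:164769779-164769928 (Ube2c, plus). Each is written 5′ to 3′ along the gene's strand, and capitals mark the matches, with TTCAAA and ATTGG being the elements read on the other strand.
Cdc20: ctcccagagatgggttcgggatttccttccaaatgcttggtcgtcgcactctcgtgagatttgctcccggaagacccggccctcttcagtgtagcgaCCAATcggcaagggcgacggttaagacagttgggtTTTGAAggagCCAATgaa
Cdk1: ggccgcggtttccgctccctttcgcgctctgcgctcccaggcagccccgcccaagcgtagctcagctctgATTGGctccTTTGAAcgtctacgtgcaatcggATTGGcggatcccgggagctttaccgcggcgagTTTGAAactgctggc
Kif11: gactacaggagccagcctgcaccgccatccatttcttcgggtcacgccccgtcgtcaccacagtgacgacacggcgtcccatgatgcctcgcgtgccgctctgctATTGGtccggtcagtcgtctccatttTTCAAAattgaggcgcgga
Mki67: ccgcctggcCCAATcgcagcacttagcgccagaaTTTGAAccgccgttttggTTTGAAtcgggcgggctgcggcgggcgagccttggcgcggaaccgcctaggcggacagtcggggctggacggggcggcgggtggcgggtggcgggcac
Smc2: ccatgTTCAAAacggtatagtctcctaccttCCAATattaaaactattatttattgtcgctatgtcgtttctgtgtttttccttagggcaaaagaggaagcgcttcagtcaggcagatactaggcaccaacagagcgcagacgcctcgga
Top2a: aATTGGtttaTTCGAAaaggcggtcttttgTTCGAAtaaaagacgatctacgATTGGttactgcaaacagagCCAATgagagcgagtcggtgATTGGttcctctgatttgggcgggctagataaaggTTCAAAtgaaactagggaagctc
Ube2c: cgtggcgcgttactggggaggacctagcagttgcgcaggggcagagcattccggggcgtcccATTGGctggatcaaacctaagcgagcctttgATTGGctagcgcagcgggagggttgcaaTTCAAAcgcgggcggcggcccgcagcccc

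The phosphatase gene Cdc25b carries its CHR match just inside the transcript, as do several others. Its 30 bases around the start (chr2:131186943-131186972, plus strand, from 5 bases before the start to base 25) are shown because Cdc25b was the only mitotic gene past the threshold in the comparisons below as first set; other settings that call more genes are given with them.
Cdc25b: ccgctgttatttTTCGAAtatataaggagg

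A CHR element was present in 41 of the 56 mitotic windows (73.2%), against 6316 of all 32851 windows of the same length (19.2%). An NF-Y box was found in 42 (75%, against 37.4%), and 29 windows held 2 or more (51.8%, against 11.7%). Both elements stood together in 36 windows (64.3%, against 7.52%), and 9 held neither (16.1%, against 50.9%). The matches were also placed alike. Of 56 CHR matches in mitotic windows, 38 lay within 50 bases of the start (67.9%, against 25.2% of matches in all windows), while NF-Y boxes were most frequent in the 100 bases before it. Counting the first transcribed base as 1 and the base before it as −1, the CHR element nearest the start begins at −18 in Cdc20, −19 in Kif11, −15 in Cdk1 and −29 in Ube2c, whereas those of Mki67 begin at −116 and −98. Cks2 had 4 NF-Y boxes and Kif2c 1 CHR element, each without the other motif. These are matches to short strings, which do not show that a factor binds there.

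**Figure D1:**
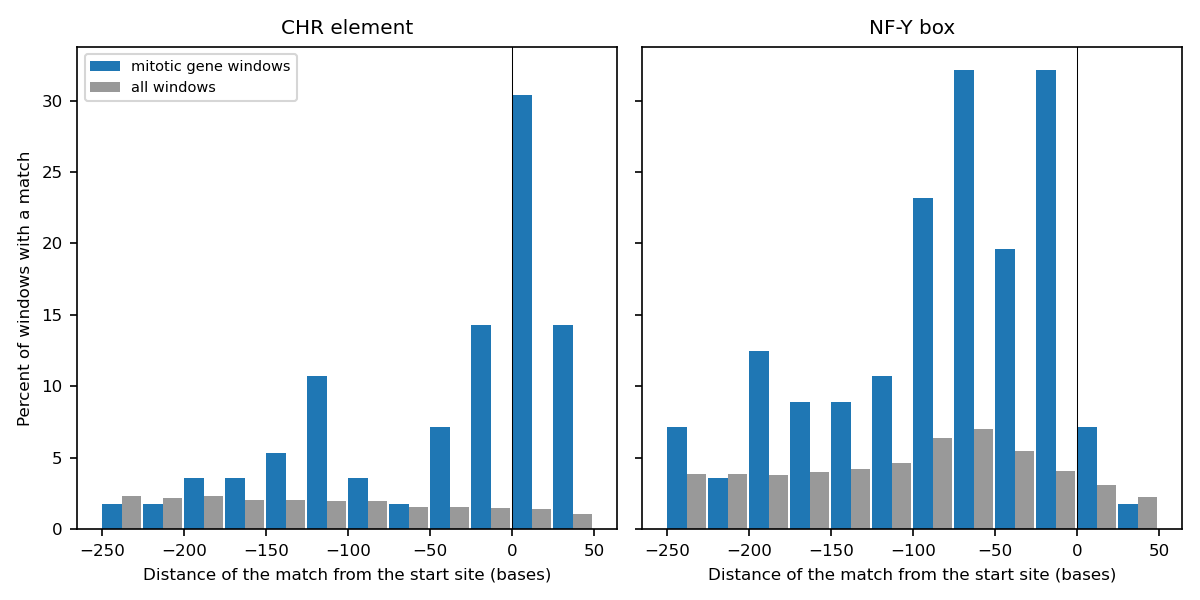
Percent of promoter windows with a match that begins in each 25-base bin (y axis) by distance from the transcription start in bases (x axis), for CHR elements (left) and NF-Y boxes (right), in 56 mitotic windows (blue) and all 32851 windows (grey). CHR matches of mitotic windows peak in the bin that begins at the start site (30.36%, against 1.428% of all windows), and NF-Y boxes reach 32.14% in the bins that begin 75 and 25 bases before it.

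With all 4 libraries, no shift of the mitotic genes between the libraries labelled KO and WT was detected. Of 58 genes, 29 were higher and 29 lower in the libraries labelled KO than in WT, with a median difference of 0.000345, against −0.04734 over all genes tested. None passed an adjusted p of 0.05 in limma (0 of 58; background 0.00893%, 1 of 11196 genes), and none had an unadjusted p under 0.05 (background 6.84%, with 4.67% lower and 2.17% higher). Single differences ran from −0.65 for Cdc25b to 0.71 for Kif2c. The 95% interval of the difference lay within a 2-fold change in either direction for 54 of the 58 genes, against 82% of all genes tested. The exceptions were Cdc25b (−1.38 to 0.07), Kif2c (−0.76 to 2.18), Plk1 (−1.01 to 0.49) and Hmmr (−0.12 to 1.0009). In 44 of 58 genes (75.9%, against 41.5% of all genes) the difference between the labelled groups was smaller than that between WT1 and WT2.

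**Figure D2:**
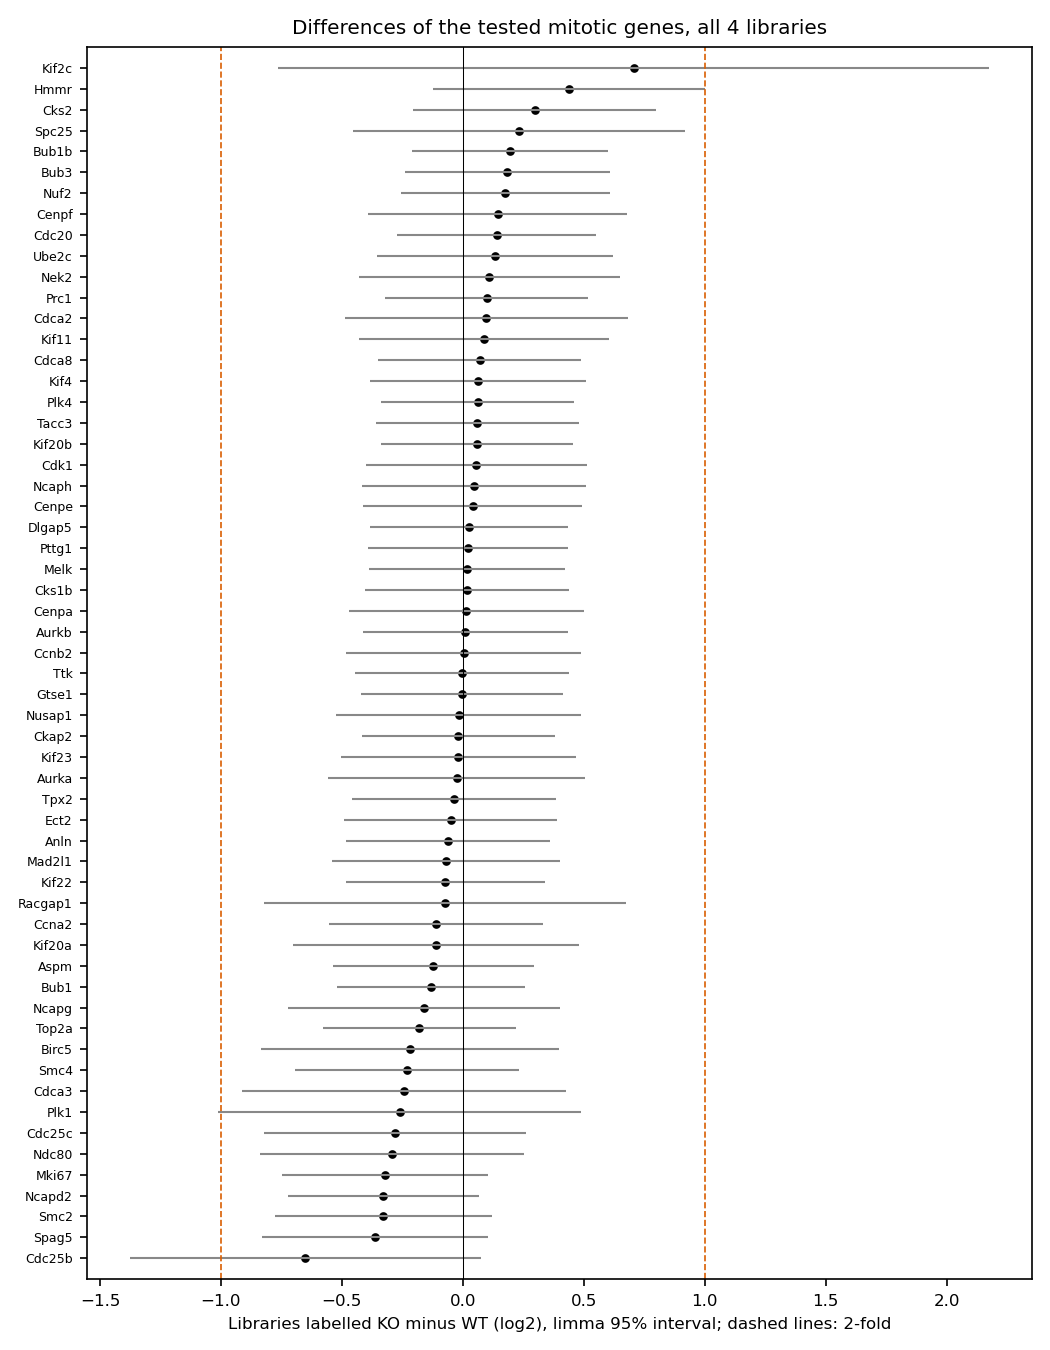
Difference between the libraries labelled KO and WT on the log2 scale (x axis; points, with limma 95% intervals as lines) for the 58 tested mitotic genes (y axis, sorted), n = 2 libraries per genotype; dashed lines mark a 2-fold change. Every interval covers 0, and 54 of 58 lie within the dashed lines.

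In 13 genes both libraries labelled KO lay on 1 side of both WT libraries. Bub1b, Bub3, Cdc20, Hmmr and Nuf2 were higher in both (5 of 58, 8.62%, background 18.7%), and Bub1, Cdc25b, Mki67, Ncapd2, Smc2, Smc4, Spag5 and Top2a were lower in both (8 of 58, 13.8%, background 24%). Both shares were below that of all genes tested. Of the 8 lower genes, 5 encode chromosome structure proteins: Mki67, Top2a and the condensin subunits Ncapd2, Smc2 and Smc4. This rests on the chosen probe sets. Another bright probe set of Smc2 read 9.82, 8.58, 9.22 and 9.27 in WT1, WT2, KO1 and KO2. For Smc4 another read 9.97, 8.94, 9.28 and 9.85, and in both the groups overlapped. The remaining probe set above the filter was lower in both genes, with differences of −0.38 and −0.28. For Bub1 the other probe set went the opposite way. It read 6.79, 6.58, 6.86 and 6.94, higher in both libraries labelled KO than in both WT libraries.

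The regulators of CDK1 are taken first. Cdk1 itself read 11.02 in WT1, 10.69 in WT2, 10.90 in KO1 and 10.92 in KO2. Both libraries labelled KO thus lay between the WT libraries, and the difference was 0.06 (SE 0.18, 95% interval −0.40 to 0.51). Cks2, a small subunit that binds CDK1, read 13.49, 13.17, 13.49 and 13.77 in WT1, WT2, KO1 and KO2, highest in the library labelled KO2. Its difference of 0.30 (SE 0.20, interval −0.21 to 0.80) did not pass (adjusted p = 0.654). Cdc25b, the phosphatase that starts CDK1 activation at the centrosomes, read 9.31, 8.86, 8.77 and 8.09 in the same order. Both libraries labelled KO were below both WT libraries, KO1 by little, and the difference was −0.65 (SE 0.29, limma adjusted p = 0.644). The remaining genes of this group, Ccna2, Ccnb2, Cdc25c and Cks1b, differed by −0.28 to 0.02 over all 4 libraries and by −0.13 to 0.12 in KO1, and none passed.

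Among the mitotic kinases, Plk1 was the least steady. This kinase, which acts from mitotic entry to cytokinesis, read 10.71 in WT1, 10.17 in WT2, 10.52 in KO1 and 9.85 in KO2. KO1 lay between the WT libraries and the library labelled KO2 below both, and the difference of −0.26 had an SE of 0.30. Nek2, a kinase of centrosome separation, read 9.54, 9.10, 9.31 and 9.55, with the groups overlapping and a difference of 0.11 (SE 0.22). Aurka, Melk, Plk4 and Ttk differed by −0.03 to 0.06 over all 4 libraries and by −0.09 to 0.07 in KO1. In the chromosomal passenger complex, which corrects faulty attachments, the kinase Aurkb read 9.46, 9.22, 9.36 and 9.34 and the targeting subunit Cdca8 (borealin) read 13.50, 13.29, 13.49 and 13.43 in WT1, WT2, KO1 and KO2. Both genes had each library labelled KO between the WT libraries, and their differences were 0.01 (SE 0.17) and 0.07 (SE 0.17). Birc5 (survivin), the third member, read 8.87, 8.44, 8.67 and 8.20, lowest in the library labelled KO2, with a difference of −0.22 (SE 0.25, interval −0.83 to 0.40).

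In the checkpoint and the machinery it restrains, no gene passed the test, and signs were mixed. Bub1b (BUBR1), a subunit of the checkpoint complex that inhibits the APC/C, read 10.67 in WT1, 10.59 in WT2, 10.75 in KO1 and 10.90 in KO2. Its partner Bub3 read 12.60, 12.41, 12.62 and 12.75. In both genes the groups did not overlap, though KO1 exceeded WT1 by less than WT1 exceeded WT2, and the differences were 0.19 (SE 0.16) and 0.18 (SE 0.17). By its unmarked probe sets, Bub1b differed by −0.0024 and 0.06. Bub1 differed by −0.13 and Mad2l1 by −0.07, and in KO1 by −0.10 and 0.07. By its other probe set Bub1 differed by 0.21, and by 0.17 in KO1. Cdc20, the APC/C activator that the checkpoint holds back, read 12.49, 12.33, 12.60 and 12.51, again without overlap, with a difference of 0.14 (SE 0.16, interval −0.27 to 0.55). Ube2c, the enzyme that starts ubiquitin chains on APC/C targets, read 9.82, 9.57, 9.98 and 9.67. It was highest in KO1 and differed by 0.13 (SE 0.20). Securin (Pttg1), whose destruction frees separase, differed by 0.02 (SE 0.17), and by −0.06 in KO1.

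At the centromere, the histone H3 variant Cenpa read 11.30 in WT1, 10.93 in WT2, 11.07 in KO1 and 11.20 in KO2. Both libraries labelled KO lay between the WT libraries, with a difference of 0.01 (SE 0.19, interval −0.47 to 0.50). Ndc80 and Nuf2 are partners in the complex that grips microtubules. Ndc80 read 6.63, 6.47, 6.50 and 6.01, lowest in the library labelled KO2, and Nuf2 read 9.49, 9.23, 9.52 and 9.56, lowest in WT2. The differences were −0.29 (SE 0.22) and 0.18 (SE 0.17), and neither passed. Cenpe, Cenpf and Spc25 differed by 0.04 to 0.23, and by −0.11 to 0.16 in KO1.

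Of the kinesin motors, none of the 7 tested passed. Kif11, the bipolar motor that pushes spindle poles apart, read 8.48 in WT1, 8.10 in WT2, 8.50 in KO1 and 8.25 in KO2. Kif20a, a kinesin of the central spindle, read 9.44, 9.19, 9.48 and 8.93. By the chosen probe sets KO1 stood just above WT1 in both genes while the library labelled KO2 was below it. The differences were 0.09 (SE 0.21) and −0.11 (SE 0.24). The other Kif11 probe sets read 8.30, 7.92, 8.12 and 8.45, and 5.75, 5.53, 6.05 and 6.06. By each of them the library labelled KO2 was above both WT libraries. Kif2c (MCAK), a kinesin that takes microtubules apart at centromeres, read 12.90, 11.67, 12.28 and 13.71. Its WT libraries alone were 1.23 apart, KO1 lay between them, and the difference of 0.71 had an SE of 0.59. Kif4, Kif20b, Kif22 and Kif23 differed by −0.07 to 0.06, and by −0.17 to 0.02 in KO1.

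Of the spindle proteins, Hmmr and Spag5 differed most, in opposite directions. Hmmr, which helps organise spindle poles, read 8.57 in WT1, 8.33 in WT2, 8.65 in KO1 and 9.14 in KO2. Spag5 (astrin), which stabilises kinetochore fibres, read 7.64, 7.72, 7.49 and 7.15. Neither gene's groups overlapped, and in both most of the difference lay in the library labelled KO2. The differences were 0.44 (SE 0.22, adjusted p = 0.644) and −0.36 (SE 0.19, adjusted p = 0.644). Aspm, Ckap2, Dlgap5, Gtse1, Nusap1, Tacc3 and Tpx2 differed by −0.12 to 0.06, and by −0.22 to 0.12 in KO1. Among cytokinesis genes, the scaffold Anln (anillin) read 8.93, 8.70, 8.76 and 8.74, and the microtubule bundler Prc1 read 9.80, 9.59, 9.82 and 9.76. The groups overlapped in both, with differences of −0.06 (SE 0.17) and 0.10 (SE 0.17). Ect2 and Racgap1, which activate RhoA at the midzone, differed by −0.05 and −0.08, and in KO1 by −0.14 and −0.34. Cdca3, a trigger of mitotic entry, read 9.26, 9.15, 9.32 and 8.60, lowest in the library labelled KO2, with a difference of −0.24 (SE 0.27).

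Among roles with more than 1 gene, chromosome structure had the lowest median difference over all 4 libraries, −0.21. In KO1 alone its median was −0.09, against −0.10 for cytokinesis genes. Of the 8 chromosome structure genes, 6 were lower in the libraries labelled KO, none past the test. Mki67 (Ki-67), the protein that coats mitotic chromosomes, read 11.41 in WT1, 11.27 in WT2, 11.12 in KO1 and 10.92 in KO2. Both libraries labelled KO were below both WT libraries, by about as much as the WT libraries differed in the case of KO1. The difference was −0.32 (SE 0.17, interval −0.75 to 0.10, adjusted p = 0.644). Smc2, a core condensin ATPase, read 9.97, 9.79, 9.67 and 9.42, and its partner subunit Ncapd2 read 10.06, 10.05, 9.78 and 9.67. The groups did not overlap, and the differences were −0.33 (SE 0.18) and −0.33 (SE 0.16). Topoisomerase IIα (Top2a), which untangles sister chromatids, read 11.88, 11.87, 11.76 and 11.63, again without overlap, and differed by −0.18 (SE 0.16). Smc4, Ncapg, Ncaph and Cdca2 differed by −0.23, −0.16, 0.05 and 0.10, and in KO1 by −0.07, 0.08, 0.18 and −0.02.

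**Figure D3:**
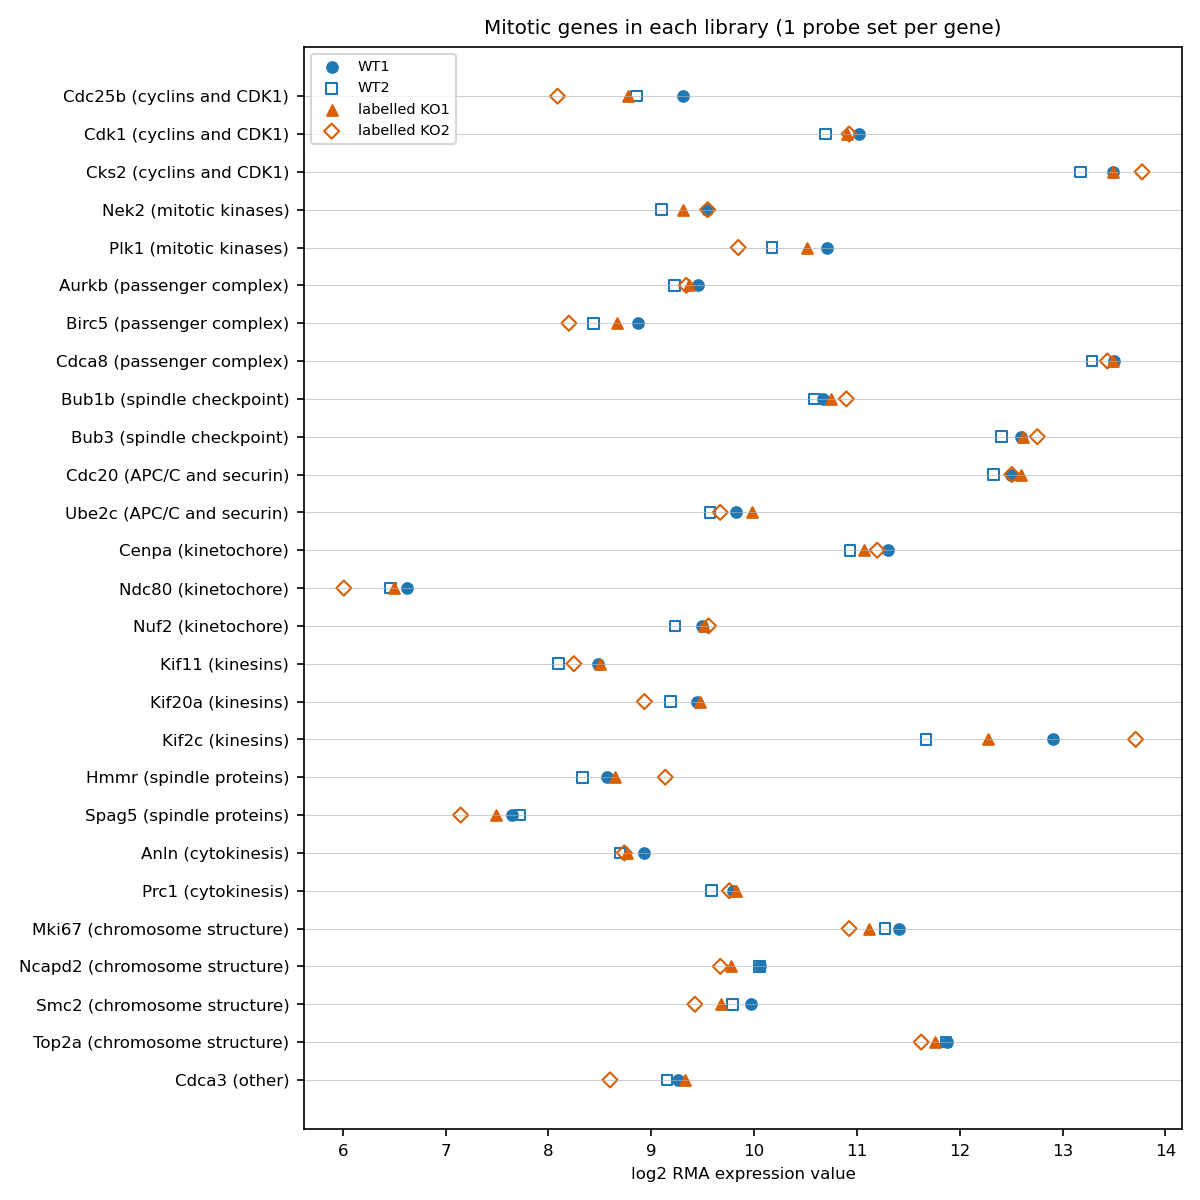
Log2 RMA expression values (x axis) of 27 mitotic genes, with their role in brackets (y axis), in each of the 4 libraries: WT1 and WT2 in blue, the libraries labelled KO1 and KO2 in orange. In most genes the 4 points lie within 1 log2 unit, as for Cdk1 between 10.69 and 11.02; Kif2c spreads from 11.67 to 13.71 and Cdc25b from 8.09 to 9.31.

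Each library labelled KO was then set against the WT libraries by itself, with its spread assumed equal to that of the WT pair; both comparisons use the same WT libraries. In KO1, the library whose Lyl1 value matches its label, 0 of 58 mitotic genes passed in limma (background 0.196%, with 0.107% lower and 0.0893% higher) and 0 had an unadjusted p under 0.05 (background 6.74%, with 4.42% lower and 2.32% higher). The differences ran from −0.34 for Racgap1 to 0.29 for Ube2c, with a median of −0.01, against −0.01 over all genes tested. The 95% interval stayed within a 2-fold change for 56 of 58, the exceptions being Racgap1 and Kif2c. KO1 lay between WT1 and WT2 in 27 of 58 genes (46.6%, against 31.1% of all genes). By role, its medians ran from −0.10 for cytokinesis genes to 0.19 for the 3 APC/C and securin genes.

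In the library labelled KO2, 1 of 58 mitotic genes passed the adjusted threshold, Cdc25b, which fell (background 14.8% of 11196 genes, 10.8% lower and 3.94% higher). Its level of 8.09, against 9.31 and 8.86 in WT, was 0.99 below the WT mean (SE 0.22, interval −1.53 to −0.46, limma adjusted p = 0.0356), or 0.503 times the WT level. Against WT2 alone it was lower by a difference of −0.767 and against WT1 alone by −1.22. In KO1 the corresponding difference was −0.31 (adjusted p = 0.853). The Cdc25b call was lost with no filter on low values (adjusted p = 0.0866) and kept in the 7 other alternatives, where the adjusted p was 0.00817 to 0.0428. The gene has only 1 probe set on the array, so averaging probe sets or dropping marked ones could not change its values. Among these alternatives its difference moved only under quantile normalization (−0.769) and median centring (−1.11).

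A further 8 mitotic genes had an unadjusted p under 0.05 in that library without passing the adjusted threshold. Higher were Kif2c, by 1.42 (adjusted p = 0.0757), and Hmmr, by 0.68 (adjusted p = 0.0533). Lower were Cdca3 (−0.61), Plk1 (−0.60), Ndc80 (−0.54), Spag5 (−0.54), Smc2 (−0.45) and Mki67 (−0.42), with adjusted p between 0.0565 and 0.135. With Cdc25b this makes 2 higher (background 13.2%) and 7 lower (background 22.9%). The median over the 58 genes was 0.02, against −0.08 over all genes tested, with 30 higher and 28 lower. The library lay between WT1 and WT2 in 23 of 58 mitotic genes (39.7%) and in 13.8% of all genes.

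By role, chromosome structure genes had the lowest median in the library labelled KO2 among roles with more than 1 gene, −0.39, and 7 of 8 were lower there. It was also the lowest after quantile normalization (−0.25, 6 of 8 lower), after median centring (−0.51, 7 of 8 lower) and with probe sets averaged per gene (−0.21, 6 of 8 lower). Centromere and kinetochore genes had the highest, 0.19, or 0.39 and 0.08 under these scalings, but 0.06 with probe sets averaged, where cytokinesis genes stood at 0.09. The cyclin and CDK1 group was at −0.09, the kinases at 0.05, the kinesins at 0.09 and the spindle proteins at −0.02, and of these only the cyclin group kept 1 sign under both scalings. The scale of this library is itself uncertain. The median of all genes tested was −0.08 as deposited, 0.06 after quantile normalization and −0.20 after median centring, and the mitotic median moved with it, to 0.187 and −0.0991. All-gene calls split into 441 higher and 1211 lower as deposited, but 1242 and 1107 after quantile normalization. As deposited and under both scalings, the mitotic median stood above that of all genes. With no filter on low values it stood below, at 0.0357 against 0.09166.

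**Figure D4:**
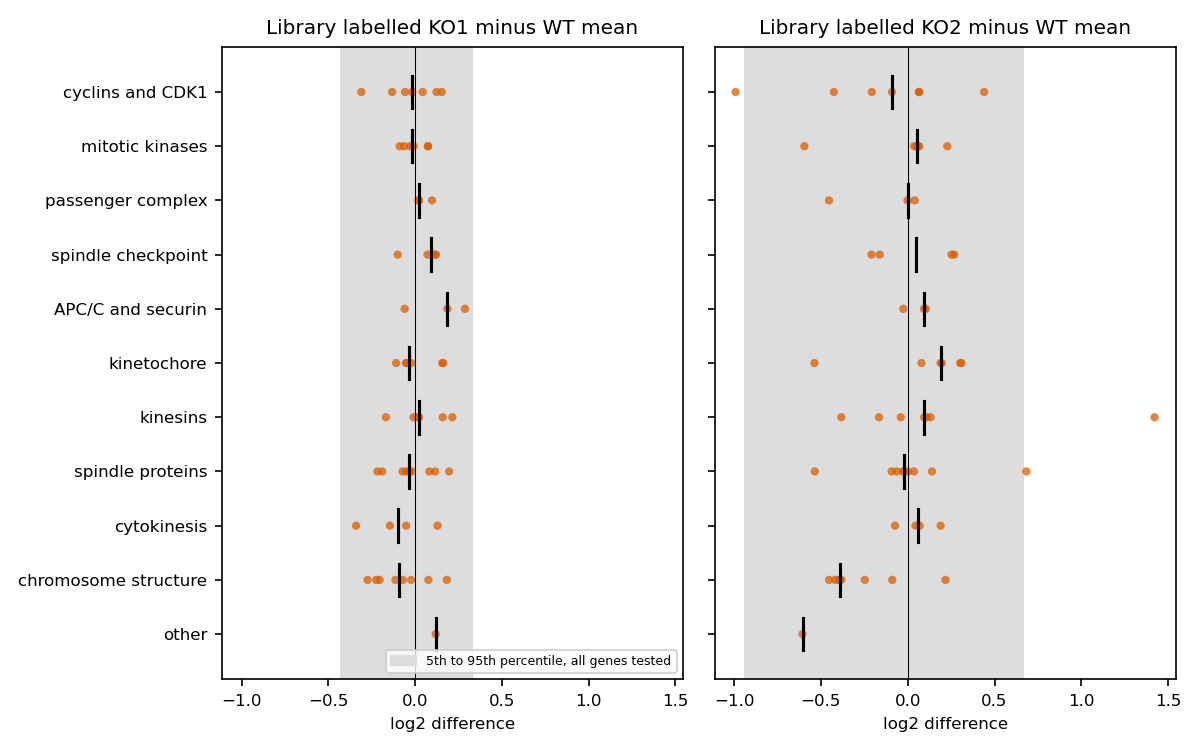
Difference of each library labelled KO from the WT mean on the log2 scale (x axis) for the 58 tested mitotic genes, 1 point each, by role (y axis), with KO1 on the left and KO2 on the right; black bars are role medians and the grey band spans the 5th to 95th percentile of all genes tested. All 58 points lie inside the band for KO1, while Cdc25b (−0.99), Kif2c (1.42) and Hmmr (0.68) lie outside the wider band of KO2, and chromosome structure has the lowest median of the roles with more than 1 gene, −0.39.

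Markers of other cells were read beside these values. Of 8 neutrophil genes, all on the array, 6 were above the filter. The summed level of all 8 (log2 of the sum of linear values) was 12.04 in WT1, 12.43 in WT2, 12.17 in KO1 and 11.66 in KO2. The sum is carried by Mpo, which read 11.79, 12.30, 11.39 and 10.68. Of the 6 genes, 3 were called higher in KO1 and 4 higher and 1 lower in KO2, with median differences of 1.76 and 1.35, and the granule genes Ngp (7.05, 6.55, 8.87 and 8.73) and Camp (8.15, 7.30, 9.73 and 9.40) were higher in both libraries labelled KO. Their part in the mitotic values was not tested. Summed levels over the 4 libraries ran from 9.74 to 10.04 for B cell markers, 7.95 to 8.37 for T cells, 9.66 to 9.94 for megakaryocytes, 10.67 to 10.96 for macrophages and dendritic cells and 11.19 to 11.67 for NK cells.

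Several genes are read by more than 1 probe set, and these did not always move together. Of 36 genes with several probe sets above the filter, 19 had opposite signs among them in the library labelled KO2, and 17 in KO1. Kif2c is the clearest case. Its brightest probe set, of a type marked in its name as able to cross-hybridise, was 1.42 higher in the library labelled KO2, whereas its other probe sets above the filter were at −0.14 and 0.26 and 1 below the filter at 0.47. For Hmmr the chosen probe set was at 0.68, the others above the filter at 0.18, −0.29 and 0.01, and 1 below it at 0.41. For other genes a second probe set was lower than the chosen one. Ncapd2 was at −0.38 by its chosen probe set and −1.20 by the other, with levels of 10.08, 10.16, 10.01 and 8.93 in WT1, WT2, KO1 and KO2. Kif22 was at −0.17 by the chosen and −0.90 and −1.30 by the others. With probe sets averaged per gene, Ncapd2 and Kif22 passed beside Cdc25b in the library labelled KO2. In KO1 the chosen and other probe sets of Ncapd2 were at −0.27 and −0.11.

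The steadiest pattern in the mitotic genes was not between the labelled groups but between the WT libraries. WT1 exceeded WT2 in 54 of 58 genes (93.1%, against 49.3% of all genes tested), by a median of 0.22, against −0.00358 over all genes. The 4 exceptions were Spag5, Dlgap5, Gtse1 and Smc4. It held in 97 of 110 mitotic probe sets above the filter. WT1 was the highest of the 4 libraries in 31 genes (53.4%, against 21.1%) and the lowest in 0, and WT2 was the lowest in 30 (51.7%, against 23.3%). After quantile normalization 51 of 58 were higher in WT1, and 54 after median centring. With 1 library on each side there is no test of this difference.

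The gap was spread over all roles, with medians from 0.10 for spindle proteins to 0.35 for kinases. It was largest for Kif2c (12.90 and 11.67 in WT1 and WT2), but only by the probe set marked as able to cross-hybridise, since the other 3 probe sets of that gene had gaps of 0.05, −0.34 and −0.23. Next came Spc25 (10.33 and 9.59), Racgap1 (9.46 and 8.79), Plk1 (10.71 and 10.17) and Cdca2 (10.17 and 9.63). Small gaps were found in genes such as Top2a (11.88 and 11.87), Ncapd2 (10.06 and 10.05) and Kif22 (11.25 and 11.23). Genes with a CHR element in their promoter window (37 tested) had a median gap of 0.216, with 36 higher in WT1, and those with a window but no CHR element (13 tested) a median of 0.21, with 12 higher. The same 2 sets had medians of −0.02 and 0.02 in KO1 and of 0.04 and 0.07 in KO2. Erythroid markers differed between the WT libraries too. Of the 4 erythroid genes on the array, 3 were above the filter. The summed level of all 4 was 9.23 in WT1, 8.13 in WT2, 7.95 in KO1 and 8.28 in KO2. Car1 read 8.57 and 7.18 and Klf1 6.73 and 5.52 in WT1 and WT2, while the haemoglobin gene Hba-a1 was below the filter throughout. Their part in the mitotic gap was not tested.

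**Figure D5:**
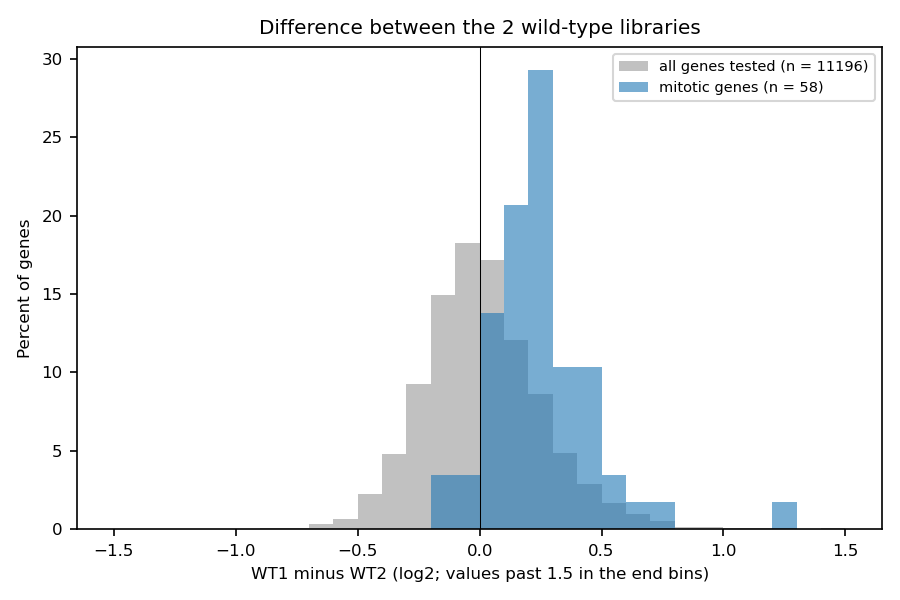
Difference between WT1 and WT2 on the log2 scale (x axis) against the percent of genes in each bin of 0.1 (y axis), for 58 mitotic genes (blue) and 11196 genes tested (grey). The mitotic genes lie to the right of 0 in 54 of 58 cases, with a median of 0.22, while all genes centre on −0.00358.

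Genes of the same pathways outside the list of 60 were read from lists fixed by function. With all 4 libraries none of them passed, in any of the 9 lists, and in KO1 alone Cdkn1a was the single one. In the library labelled KO2 more were called, to be read against the 10.8% of all genes called lower and 3.94% called higher there. Among 17 APC/C subunits and regulators 1 was called higher and 2 lower, with a list median of −0.17 that turned to 0.05 after quantile normalization. Fzr1, the activator that takes over from Cdc20, read 8.21, 8.51, 8.43 and 6.73 in WT1, WT2, KO1 and KO2 (adjusted p = 0.00925 in KO2). Of 30 other kinetochore genes 3 were called lower there, and of 28 other motor, spindle and cytokinesis genes 1 was called higher and 4 lower. WT1 was above WT2 in 24 of the 30 kinetochore and 21 of the 28 motor genes, in 10 of 11 CDK1 entry regulators, and in 9 of 17 APC/C, 8 of 15 transcriptional regulator and 7 of 13 condensin and cohesin genes, against 49.3% of all genes. Of 11 regulators of CDK1 entry 1 was called higher and 1 lower in KO2, the latter being the CDK1-inhibiting kinase Pkmyt1 at 9.78, 9.75, 9.59 and 9.12 (adjusted p = 0.0471). Of 15 transcriptional regulators 1 was called higher and 2 lower. Rbl2, a pocket protein of the DREAM repressor complex, read 6.93, 6.95, 6.60 and 6.30 (adjusted p = 0.0483 in KO2), while E2f5 read 7.57, 7.63, 7.85 and 8.37 (adjusted p = 0.0323).

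Of 13 other condensin and cohesin genes, 11 were lower in the library labelled KO2, as were 6360 of all 11196 genes, and 2 were called lower (background 10.8%). The list had a median there of −0.44, which stayed negative after quantile normalization (−0.32) and median centring (−0.56). Ncapg2, the HEAT subunit of condensin II, read 9.50 in WT1, 9.38 in WT2, 8.81 in KO1 and 8.60 in KO2, so both libraries labelled KO were well below WT. The difference was −0.74 over all 4 libraries (SE 0.17, adjusted p = 0.623), −0.64 in KO1 (adjusted p = 0.444) and −0.84 in KO2 (adjusted p = 0.0275).

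Genes of DNA replication and S phase are the neighbouring part of the cycle. Of 38 tested, 8 were called lower and 0 higher in the library labelled KO2 (background 10.8% lower and 3.94% higher), among them Tyms, the thymidylate synthase, at 7.79, 7.25, 7.13 and 6.51 (adjusted p = 0.0427), and the clamp loader subunit Rfc3 at 8.26, 8.41, 8.06 and 7.49 (adjusted p = 0.0286). Their median was −0.09 in KO2, turning to 0.04 after quantile normalization, and 0.08 in KO1, and WT1 exceeded WT2 in 21 of 38. The WT gap of the mitotic genes was thus not seen at this size in S phase genes, whose median gap was 0.03. Whether the lists differ in this was not tested. In the G1 list of 12, 9 genes were lower in KO2, as were 6360 of all 11196 genes. The list median there was −0.31, and −0.19 and −0.43 after quantile normalization and median centring. Single genes went both ways, E2f1 higher and Ccnd3 lower. WT1 exceeded WT2 in 7 of the 12, with a median gap of 0.03. The CDK inhibitors were higher in WT1 in 4 of 4 genes tested, with a median gap of 0.36, larger than that of the mitotic genes.

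Cdkn1a, which encodes the CDK inhibitor p21, was the 1 gene of these lists called in both single comparisons with the libraries labelled KO, which share the WT libraries. It read 9.51 in WT1, 9.28 in WT2, 10.96 in KO1 and 11.80 in KO2. Both were far above both WT libraries, and the gene rose by 1.56 in KO1 and by 2.40 in KO2. The call in KO1 was lost with no filter on low values. Over all 4 libraries the difference of 1.98 (SE 0.30) did not pass (adjusted p = 0.297). Of the other 3 CDK inhibitors tested, Cdkn1b (p27) read 8.16, 7.95, 7.96 and 7.90 and differed by −0.12 (SE 0.17).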

How the data were processed

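Total RNA of sorted LMPPs was amplified, labelled with biotin and hybridised to a 3′ expression array, 1 library per array. Values are on the log2 scale as deposited, and were made by the authors with RMA (background correction, normalization between arrays and a summary per probe set), per the submitters' processing notes; no version of it is given in the sources used here. Column medians were 5.65, 5.65, 5.68 and 5.76 in WT1, WT2, KO1 and KO2, and SDs 2.48, 2.47, 2.44 and 2.34. Of 45037 probe sets, those with 1 symbol in the platform annotation named 18193 genes. The number of arrays limits the precision. Differences were tested in limma 3.58.1 under R 4.3.3 (lmFit, eBayes, two-sided, Benjamini-Hochberg over all 11196 genes at 0.05), a procedure tested on simulated data. All adjusted p-values are from it. The genes and lists were chosen with earlier results of these data known. Values in every library are given for 12 core genes (Mki67, Top2a, Cdk1, Plk1, Aurkb, Birc5, Bub1b, Cenpa, Cdc20, Ube2c, Kif11 and Smc2), for the 2 smallest unadjusted p in each role, for genes past the threshold, and for up to 2 genes of each other list; other genes named with values, such as those with a large WT gap, were chosen after their values were seen. Alternatives were the filter, the mean of probe sets, 2 scalings, the prior, array weights, the threshold, a replicate block and each library left out. A crossed block and a fit without probe sets marked as cross-hybridising were added after the data were seen. No gene coordinates are given from the array, since no build is named for it.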

Additional observations from a re-analysis of the deposited data

How the results depend on the processing

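With all 4 libraries, 0 mitotic genes passed under every alternative that kept all 4, including the replicate block, a crossed block, array weights and a threshold of 0.10; leaving out 1 library gave 0 to 1 gene and medians of −0.138 to 0.0991. The deviations of same-numbered libraries had r = −0.407, so the numbers are not shown to pair the libraries; over all genes the replicate block gave 3 calls and the crossed block 1, against 1 without a block. In the library labelled KO2 the 1 call became 0 with no filter, 2 with a stricter filter, 3 with the mean of probe sets, 4 after quantile normalization, 6 after median centring and 2 without probe sets marked as cross-hybridising. Under each of these settings a smaller share of the mitotic genes was called than of all genes tested. The mitotic median in the library labelled KO2 was 0.187 after quantile normalization and −0.0991 after median centring. Without 1 WT library it was −0.112 to 0.125, and that of KO1 −0.12 to 0.137. These last have 1 library per side and no test. All-gene calls in KO2 were 1652, but 5 with no filter, 2349 after quantile normalization and 2802 after median centring. In KO1 they were 22, but 2 with no filter, 8 with the mean of probe sets, 60 and 55 under the scalings and 31 and 33 with a trended or robust prior. With all libraries they were 1, but 0 to 6 among the alternatives. Of 429 values of 27 named genes under 16 alternatives, 0 reversed a called direction, 31 changed the sign of an uncalled difference, and 1 passed, Cdc25b without KO1 (adjusted p = 0.0356). With n = 2 per genotype, the median SE of a difference was 0.189 over all genes tested.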
